A study of Homo sapiens with 21 samples.

Results

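The JDP2 knockout of the human monocytic leukemia line THP1 was represented by 2 single-cell clones, and these clones were compared with each other. Each clone had 2 RNA sequencing libraries, so 4 of the 19 libraries analysed (21 are labelled in the series) entered the comparison of clone 2 with clone 1. Their columns in the deposited table of normalized read counts were chosen by label, and the test took genes whose normalized count averaged 10 or more across these libraries, 12735 of 20423. The series concerns how IRF2BP2, a transcriptional cofactor, and the factors ATF7 and JDP2 act on inflammatory genes. All groups were THP1 cells: a knockout control (2 libraries), JDP2 KO clone 1 and clone 2 and ATF7 KO clone 1 and clone 2 (2 libraries each), an shRNA control (2), a wild type (1) and 2 IRF2BP2 shRNAs (3 each). The knockouts were made with Lenti-CRISPRv2 and cloned by limiting dilution, and the knockdowns with pLKO.1. No further treatment is labelled. The labels give neither the edited alleles nor whether the knockout control is a clone or a pool. Each JDP2 clone descends from 1 cell, so a difference between the founder cells and an unequal effect of the edits cannot be told apart.

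JDP2 is a basic leucine zipper protein that pairs with JUN proteins, ATF2 and ATF7. It binds AP-1 sites and cyclic AMP response elements, where it mostly represses transcription, in part by recruiting histone deacetylases. In myeloid cells AP-1 and ATF proteins govern genes of differentiation and inflammation.

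Reads in genes numbered 36194417 and 29105572 in clone 1 and 60196382 and 35407144 in clone 2. Clone 1 replicate 2 stood apart: 38.6% of its genes were over 2-fold away from the all-library median, against 5.51% to 8.09% in the other 3. Of its reads 9.2% came from cytosolic ribosomal protein genes (6.27% to 6.62% in the other 3) and 0.971% from mitochondrial genes (3.2% to 3.4%). The replicates of clone 1 differed more than 2-fold at 41.9% of tested genes and those of clone 2 at 8.86%. Results that rest on clone 1 replicate 2 are therefore also given without it. The labels do not say whether replicates were separate cultures, so p-values measure only the spread between libraries, which may be technical.

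**Figure D1:**
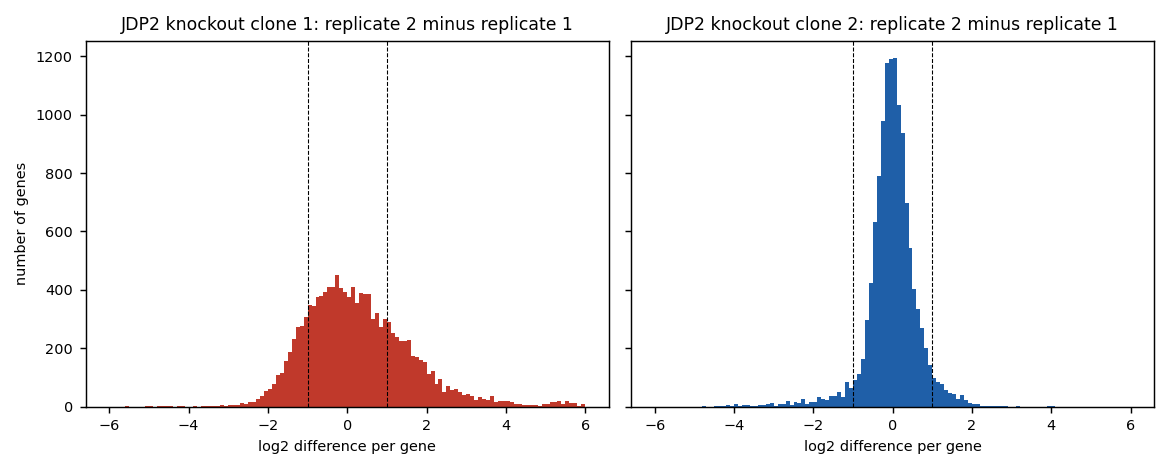
Histograms of the log2 difference between replicate 2 and replicate 1 for each tested gene (horizontal axis, log2(normalized count + 1) units; vertical axis, number of genes), in JDP2 knockout clone 1 and clone 2, with dashed lines at 2-fold. The clone 1 distribution is the wider, with 41.9% of genes beyond the lines against 8.86% in clone 2.

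JDP2 message was present in both clones. Its normalized count was 3158 and 5693 in clone 1, 4652 and 5368 in clone 2 and 5085 and 3438 in the control, and the groups overlapped. The log2 difference of clone 2 from clone 1 was 0.24 ± 0.44 (SE) and did not pass the limma test (adjusted p = 1). It was -0.19 without clone 1 replicate 1. The message can persist after a CRISPR edit that removes the protein, and these levels therefore do not test either clone's label. ATF7, a partner of JDP2, stood at 299 and 168 in clone 1, 307 and 306 in clone 2 and 299.9 and 537 in the control. IRF2BP2 stood at 17839.8 and 27436 in clone 1, 18617 and 24776 in clone 2 and 21364 and 14859 in the control. Neither passed the test between the clones (limma adjusted p = 1 and 1). The 14 markers of THP1 monocytic cells summed to 106407 to 316652 normalized counts in clone 1, 133217 to 185758 in clone 2 and 83364 to 114985 in the control, and each was detected.

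POU4F1 was the only gene called in the limma fit of the 4 libraries (1 of 12735 tested, 0.00785%, at a Benjamini-Hochberg adjusted p under 0.05), and 178 genes had an unadjusted p under 0.05. It encodes a POU homeodomain transcription factor known from sensory neurons and lies at chr13:78598362-78603552 in GRCh38, on the minus strand. It had a normalized count of 2012 and 2230.2 in clone 1, 1.28 and 0 in clone 2 and 2184 and 1317 in the control, and the clone 2 values stand for recovered counts of 2 and 0. Low recovered counts were even for 78.1% and 75.7% of values in the clone 2 libraries, and whether 1 fragment was counted as 2 reads is not given in the labels, so a count of 2 may be 1 fragment. It stood at 2063 and 1829 in ATF7 clone 1 and 3086 and 3141 in ATF7 clone 2, and the 9 libraries outside the knockout arm held 705 to 2698. The 17 libraries outside clone 2 thus lay far above both clone 2 libraries. POU4F1 fell by 10.46 on the log2(normalized count + 1) scale in clone 2 (SE 0.62, limma adjusted p = 0.0446). This size depends on the constant added, since clone 2 is near 0, and was -7.65 with a constant of 10. With a constant of 0.5 the gene was no longer called (adjusted p = 0.0513). EdgeR called 0 genes, with 204 at an unadjusted p under 0.05, and gave POU4F1 an adjusted p of 0.0968.

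A limma fit that shared its spread over the 10 libraries of the knockout arm (knockout control, both ATF7 clones and both JDP2 clones) called 18 genes between the JDP2 clones, 0.141% of those tested. PTPRF, PSTPIP2, CSTPP1 and TMEM132B rose in clone 2. POU4F1, LRP3, GRIN2D, EPS8L1, CYP2S1, SIX5, ZNF569, ZNF331, C2CD4C, SYT7, KCNG1, CXCL16, A4GALT and HDHD3 fell. Without clone 1 replicate 2, an alternative chosen after seeing the data, this fit called 22 genes (8 higher, 14 lower) with the 18 among them. The 3 remaining JDP2 libraries fitted alone gave 28 calls (0.22%), with 14 of the 18 among them. The 4 that it did not call were TMEM132B, ZNF569, C2CD4C and HDHD3 (limma adjusted p = 0.0501, 0.0521, 0.213 and 0.0617).

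Promoters are shown for POU4F1, the gene called in clone 2, for PTPRF, which was low in clone 1, and for LRP3 and ZNF331, chromosome 19 genes that were low in clone 2. Each line gives the 250 bases before the RefSeq start (GRCh38.p14), 5′ to 3′ on the gene's strand, with CG dinucleotides in capitals. They lie at chr13:78603553-78603802 (minus strand), chr1:43530633-43530882, chr19:33194080-33194329 and chr19:53520764-53521013 (plus strand), and the starts used for PTPRF and ZNF331 lie inside the annotated spans of these genes (chr1:43522051-43623666 and chr19:53503235-53580269).
POU4F1: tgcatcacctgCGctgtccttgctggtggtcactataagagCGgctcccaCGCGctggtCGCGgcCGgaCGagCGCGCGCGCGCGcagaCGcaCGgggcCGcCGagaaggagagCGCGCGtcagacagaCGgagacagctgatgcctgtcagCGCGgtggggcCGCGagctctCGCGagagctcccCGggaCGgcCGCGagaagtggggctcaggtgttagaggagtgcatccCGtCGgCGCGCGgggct
PTPRF: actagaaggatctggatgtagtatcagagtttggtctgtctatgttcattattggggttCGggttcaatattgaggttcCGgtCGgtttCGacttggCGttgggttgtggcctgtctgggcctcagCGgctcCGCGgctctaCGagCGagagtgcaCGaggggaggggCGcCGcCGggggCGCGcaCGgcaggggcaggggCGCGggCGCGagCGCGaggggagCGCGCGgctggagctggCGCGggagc
LRP3: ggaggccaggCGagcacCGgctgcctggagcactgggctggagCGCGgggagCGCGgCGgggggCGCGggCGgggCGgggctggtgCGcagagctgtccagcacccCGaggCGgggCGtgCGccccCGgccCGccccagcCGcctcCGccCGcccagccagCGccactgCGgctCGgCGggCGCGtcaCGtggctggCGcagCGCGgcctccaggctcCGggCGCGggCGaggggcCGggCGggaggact
ZNF331: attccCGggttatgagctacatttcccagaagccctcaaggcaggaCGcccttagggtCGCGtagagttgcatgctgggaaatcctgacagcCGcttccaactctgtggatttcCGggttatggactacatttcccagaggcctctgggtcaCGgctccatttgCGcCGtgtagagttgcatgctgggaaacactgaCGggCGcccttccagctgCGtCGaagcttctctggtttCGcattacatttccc
CG occurred 37 times before POU4F1, 28 times before PTPRF, 37 times before LRP3 and 14 times before ZNF331. The median was 21 over 10267 tested genes with a RefSeq promoter, 17 over 96 genes that were lower in clone 2 by at least 2-fold without overlap, and 6.5 over 30 that were higher in this way.

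The motifs TGACTCA (an AP-1 site) and TGACGTCA (a cyclic AMP response element) were searched on both strands, from 250 bases before to 50 after the start, in 29 genes named for their differences between the clones. A RefSeq promoter was found for 23 of them and not for AOC3, ITGAD, SIX5, SYT7, KCNG1 and CXCL16. TGACTCA occurred in 1 of 23, that of CD68, and in 4.89% of all 27195 promoters. TGACGTCA occurred in 0 of 23 and in 1.98% of all. The 250 bases before CD68 (chr17:7579388-7579637, plus strand) are shown for that match, with the reverse complement of TGACTCA in capitals.
CD68: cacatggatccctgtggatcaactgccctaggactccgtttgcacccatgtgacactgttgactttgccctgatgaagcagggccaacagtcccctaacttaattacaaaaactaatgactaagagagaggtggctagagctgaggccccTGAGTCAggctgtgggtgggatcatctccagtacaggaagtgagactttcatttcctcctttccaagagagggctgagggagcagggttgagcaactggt
A match describes these letters and is not a measured binding site.

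PTPRF, a receptor-type tyrosine phosphatase of adhesion sites at chr1:43522051-43623666, was low in clone 1. Its normalized count was 32.7 and 37.3 in clone 1, 1108 and 1337 in clone 2 and 1302 and 1236 in the control. The ATF7 clones held 840.3 to 1584 and the 9 libraries outside the knockout arm 261 to 1181, so both clone 1 libraries lay below the other 17. The log2 difference of clone 2 from clone 1 was 5.08 ± 0.37 (SE). The limma adjusted p was 0.0525 over the 4 libraries and 2.35e-05 over the 10 libraries.

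PSTPIP2, an F-BAR protein of macrophages, was nearly off in clone 1, with 4.22 and 5.59 in clone 1, 312 and 384 in clone 2 and 171 and 208 in the control. ATF7 clone 1 was also nearly off and ATF7 clone 2 was not, with 2.16 and 2.17 in ATF7 clone 1 and 182 and 139 in ATF7 clone 2. The log2 difference between the JDP2 clones was 5.89 ± 0.57 (SE). Limma gave it an adjusted p of 0.1 over 4 and of 0.000544 over 10 libraries. TMEM132B, a membrane protein gene, had 27.4 and 39.2 in clone 1, 159 and 285 in clone 2 and 302 and 361 in the control, and its adjusted p was 1 over 4 and 0.0213 over 10 libraries with limma. In both genes the clone 1 libraries lay below clone 2 and the control without overlap.

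In 3 further genes clone 1 lay below clone 2 and the control, with no call over the 4 or the 10 libraries. TIAM1, an activator of the GTPase RAC, had 5.27 and 18.6 in clone 1, 137 and 141 in clone 2 and 164 and 155 in the control. CTPS2, a CTP synthase, had 106 and 131 in clone 1, 379 and 445 in clone 2 and 341 and 318 in the control. ITGAD, the integrin alpha D chain of leukocytes, had 9.49 and 52.2 in clone 1, 276 and 517 in clone 2 and 266 and 163 in the control. TIAM1 was also low in ATF7 clone 1 (20.5 and 18.4) and in 1 library of ATF7 clone 2 (98.4 and 9.60). CTPS2 was not, with 388 to 472 in the ATF7 clones. ITGAD also separated the ATF7 clones, with 3497 and 4590.4 in ATF7 clone 1 and 87.9 and 9.60 in ATF7 clone 2. The limma adjusted p over 10 libraries was 0.635 for TIAM1, 0.0541 for CTPS2 and 0.435 for ITGAD. In the fit of the 3 JDP2 libraries without clone 1 replicate 2, TIAM1 and ITGAD were called (adjusted p = 0.00604 and 0.000785) and CTPS2 was not (adjusted p = 0.0918).

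CSTPP1, TMEM72 and AOC3 were instead high in clone 2, above the other 17 libraries. CSTPP1, a regulator of tubulin polyglutamylation at centriolar satellites, had 10.5 and 22.4 in clone 1, 359 and 415 in clone 2 and 54.3 and 54.6 in the control. TMEM72, a membrane protein gene, had 23.2 and 18.6 in clone 1, 268 and 249 in clone 2 and 22.8 and 17.1 in the control. AOC3, the amine oxidase known as vascular adhesion protein, had 52.7 and 76.5 in clone 1, 281 and 415 in clone 2 and 30.4 and 34.9 in the control. Clone 1 lay below the control for CSTPP1, overlapped it for TMEM72 and lay above it for AOC3. The limma adjusted p between the clones over 10 libraries was 0.0213 for CSTPP1, 0.0789 for TMEM72 and 0.157 for AOC3. Without clone 1 replicate 2 the 3 JDP2 libraries gave 0.000442, 0.0072 and 0.0351, so TMEM72 and AOC3 were called there.

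**Figure D2:**
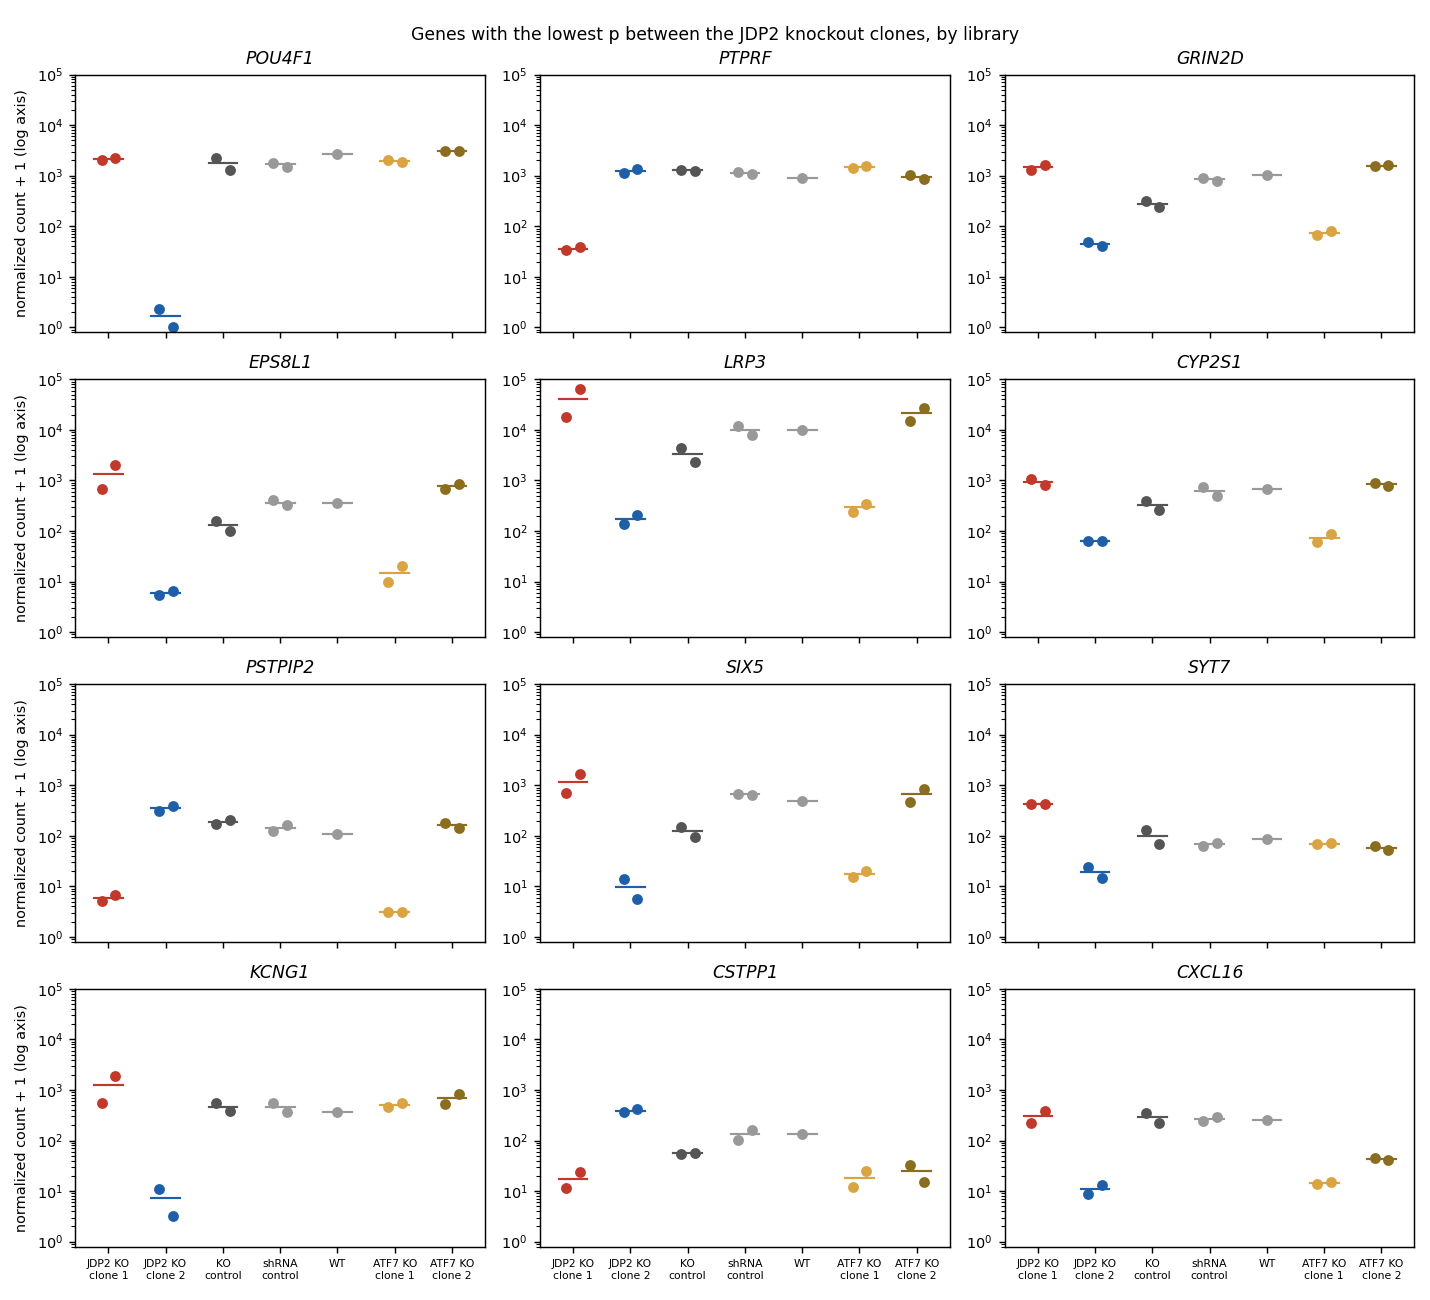
Normalized count + 1 (log axis) of the 12 genes with the lowest p between the JDP2 clones in each library of the JDP2 clones, the controls and the ATF7 clones (points; bars are group means). POU4F1 is near 0 in JDP2 clone 2, PTPRF is lowest in JDP2 clone 1, and LRP3, EPS8L1, SIX5, CYP2S1 and GRIN2D are low in JDP2 clone 2 and in ATF7 clone 1.

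KCNG1, A4GALT and HDHD3, none of them on chromosome 19, fell in clone 2 to below the other 17 libraries. KCNG1, a modulatory potassium channel subunit at chr20:51003656-51023107, had 550.3 and 1911 in clone 1, 10.2 and 2.24 in clone 2 and 548 and 388 in the control. A4GALT, the synthase of the glycolipid Gb3, had 149 and 520.3 in clone 1, 3.84 and 2.24 in clone 2 and 112 and 122 in the control. HDHD3, a gene of a hydrolase-like protein that was picked out after its values were seen, had 550.3 and 1111 in clone 1, 0 and 14.6 in clone 2 and 419 and 311 in the control. The clone 1 replicates of each differed by more than 2-fold, and both lay above clone 2. The limma adjusted p over 10 libraries was 0.000614 for KCNG1, 0.00154 for A4GALT and 0.0111 for HDHD3.

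CXCL16, a membrane-bound chemokine, was the member of 25 tested cytokines and chemokines that fell in the 10-library fit (limma adjusted p = 0.00295). It had 219 and 389.7 in clone 1, 7.68 and 12.3 in clone 2 and 356 and 222 in the control, and 12.9 and 14.1 in ATF7 clone 1 and 43.97 and 40.8 in ATF7 clone 2. Clone 2 and the 4 ATF7 knockout libraries thus lay below clone 1 and the control. SYT7, a calcium sensor of lysosome exocytosis, had 427 and 423 in clone 1, 23.04 and 13.5 in clone 2 and 126 and 66.5 in the control, and it fell in clone 2 in the same fit (adjusted p = 0.00215). Its clone 1 libraries were the highest of the 19, and the 9 libraries outside the knockout arm held 16.1 to 83.7. FGD1, an activator of the GTPase CDC42 on the X chromosome, had 196 and 125 in clone 1, 6.40 and 4.49 in clone 2 and 85.8 and 69.8 in the control, and its limma adjusted p was 0.164 over 10 libraries and 0.0244 over the 3 JDP2 libraries without clone 1 replicate 2.

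Chromosome 19 had the highest share of genes that were lower in clone 2. For this description a gene was said to lie apart where the lowest library of one clone exceeded the highest of the other by at least 1 on the log2(normalized count + 1) scale, a criterion chosen after the data were seen. Of 986 tested genes of chromosome 19, 25 lay apart with clone 2 lower (2.54%) and 2 with clone 2 higher (0.203%), against 1.07% and 0.306% of all genes tested. Chromosome 20 had 8 of 366 lower (2.19%), and each of the other chromosomes had at most 1.38% lower. Genes with a mean under 10 in clone 2 passed the filter only through clone 1 and had to be lower in clone 2. They were 89 of the 136 lower genes over all chromosomes, and many of the 25 of chromosome 19. Without clone 1 replicate 2, 36 genes of chromosome 19 were lower (3.65%) and 34 higher (3.45%), against 1.49% and 2.88% of all genes. The median log2 difference over the chromosome was -0.45 with all 4 libraries and -0.01 without clone 1 replicate 2.

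**Figure D3:**
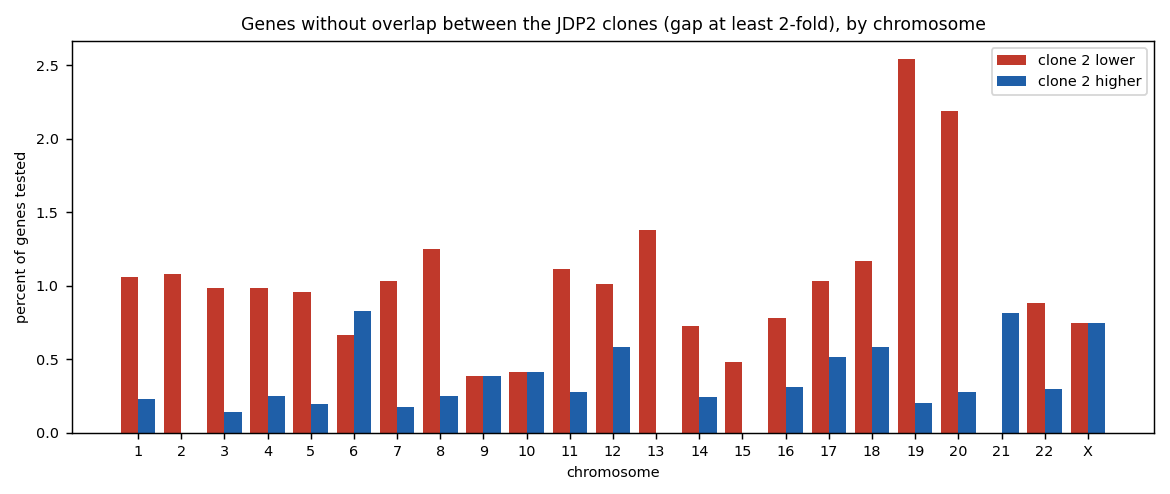
Percent of tested genes per chromosome (horizontal axis) that lay apart between the JDP2 clones by at least 2-fold, with clone 2 lower or clone 2 higher (bars). Chromosome 19 has the highest share with clone 2 lower, at 2.54%, followed by chromosome 20 at 2.19%.

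LRP3, a member of the low-density lipoprotein receptor family at chr19:33194330-33208864 on the plus strand, was far lower in clone 2 than in clone 1. Its normalized count was 18169.8 and 64299.6 in clone 1, 139 and 205 in clone 2 and 4323 and 2278 in the control. The ATF7 clones also differed, with 235 and 348 in ATF7 clone 1 and 15304 and 27665 in ATF7 clone 2, and the 9 libraries outside the knockout arm held 2492 to 11879. JDP2 clone 2 and ATF7 clone 1 thus lay below the other 15 libraries. LRP3 fell by 7.65 on the log2 scale between the JDP2 clones in the 10-library fit (SE 0.58, limma adjusted p = 0.000268). Over the 4 libraries its adjusted p was 0.0759.

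EPS8L1, SIX5, GRIN2D and CYP2S1 fell in clone 2 in the same fit, with the knockout control between the JDP2 clones and no overlap. In each the shRNA control and wild type lay above the knockout control and below both clone 1 libraries. They held 321 to 408 for EPS8L1, 481 to 673 for SIX5, 788 to 1030 for GRIN2D and 488 to 752 for CYP2S1. EPS8L1, a relative of the actin regulator EPS8 at chr19:55075869-55087923, had 681 and 2008 in clone 1, 4.48 and 5.61 in clone 2 and 156 and 100.1 in the control, and 8.62 and 19.5 in ATF7 clone 1 and 675 and 858 in ATF7 clone 2. SIX5, a homeobox factor at chr19:45764785-45769252, had 695 and 1652 in clone 1, 12.8 and 4.49 in clone 2 and 148 and 94.8 in the control, and 14.01 and 19.5 in ATF7 clone 1 and 464 and 844 in ATF7 clone 2. In both the ATF7 clones differed as well, with ATF7 clone 1 the lower. GRIN2D, an NMDA receptor subunit at chr19:48393668-48444931, had 1288 and 1643 in clone 1, 47.99 and 40.4 in clone 2 and 309 and 236 in the control, and 64.7 and 79.2 in ATF7 clone 1 and 1566 and 1597 in ATF7 clone 2. CYP2S1, a cytochrome P450 at chr19:41193219-41207539, had 1066 and 824 in clone 1, 61.4 and 61.7 in clone 2 and 391 and 259 in the control, and 58.2 and 86.8 in ATF7 clone 1 and 894 and 780.3 in ATF7 clone 2. Clone numbers of the JDP2 and ATF7 knockouts carry no relation in the labels. The limma adjusted p over 10 libraries was 0.000268 for EPS8L1, 0.000544 for SIX5, 5.11e-05 for GRIN2D and 0.000614 for CYP2S1.

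Zinc finger genes made up 9 of the 25. Many of them encode KRAB-type DNA-binding proteins that silence transposable elements, and they sit in clusters on chromosome 19. ZNF331 had 141 and 70.9 in clone 1, 0 and 0 in clone 2 and 69.5 and 52.7 in the control, which is at least 40.1-fold lower in clone 2 than in clone 1 when each clone 2 library is set to 3 reads, or at least 20.1-fold if a fragment counts as 2 reads and the floor is 6. ZNF569 had 124 and 91.4 in clone 1, 1.28 and 0 in clone 2 and 36.9 and 43.4 in the control, the clone 2 values again being recovered counts of 2 and 0. ZNF606 had 95.9 and 104 in clone 1, 6.40 and 2.24 in clone 2 and 28.3 and 31.6 in the control. The shRNA control and wild type lay above this knockout control, with 120 to 242 for ZNF331, 87.1 to 114.5 for ZNF569 and 59.7 to 80.6 for ZNF606. For ZNF331 and ZNF569 they overlapped clone 1, and for ZNF606 they lay below it. ATF7 clone 1 was low for these 3 genes and ATF7 clone 2 was not. ZNF331 stood at 1.08 and 2.17 in ATF7 clone 1 and 103 and 88.8 in ATF7 clone 2, ZNF569 at 8.62 and 2.17 in ATF7 clone 1 and 112 and 106 in ATF7 clone 2 and ZNF606 at 2.16 and 4.34 in ATF7 clone 1 and 91.4 and 104 in ATF7 clone 2. ZNF331 and ZNF569 fell in the 10-library fit (limma adjusted p = 0.00821 and 0.0158), and ZNF606 did not pass (adjusted p = 0.0789). The other 6 were ZNF114, ZNF304, ZNF468, ZNF570, ZNF577 and ZNF816, listed after their values were seen.

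Of 155 ZNF genes tested on chromosome 19, 9 lay apart lower and 1 higher (ZNF600), and 0 were called over the 4 libraries by limma or edgeR, with 1 higher and 11 lower at an unadjusted limma p under 0.05. Against shares over all genes tested of 1.07% lower and 0.306% higher, 0 of 191 ZNF genes on other chromosomes lay apart. Their median log2 differences were -0.34 and 0.12, and -0.26 and -0.06 without clone 1 replicate 2, against 0.00 and 0.01 over all genes. Zinc finger genes of a cluster resemble each other, so their reads may have been shared. ZNF304, ZNF331, ZNF468, ZNF569, ZNF570, ZNF606 and ZNF816 averaged under 10 in clone 2. They thus passed the filter through clone 1 and had to be lower in clone 2.

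C2CD4C also fell in the 10-library fit (limma adjusted p = 0.0111), with 60.1 and 196 in clone 1, 2.56 and 0 in clone 2 and 44.6 and 57.9 in the control. DKKL1, a dickkopf-like gene, had 95.9 and 283 in clone 1, 7.68 and 0 in clone 2 and 21.7 and 19.1 in the control. ADAMTS10, a secreted metalloprotease, had 332 and 1269.9 in clone 1, 12.8 and 2.24 in clone 2 and 81.5 and 100.1 in the control. Clone 2 lay below the control and clone 1 above it in DKKL1 and ADAMTS10, which did not pass that test (adjusted p = 0.177 and 0.845). Over the 3 JDP2 libraries without clone 1 replicate 2 limma called ADAMTS10 (adjusted p = 0.0326) and not DKKL1 or C2CD4C (adjusted p = 0.24 and 0.213). The ATF7 clones overlapped for ADAMTS10, with 166 and 270.1 in ATF7 clone 1 and 179 and 0 in ATF7 clone 2. The other 8 of the 25 were CERS1, VSTM2B, RHPN2, DLL3, CEACAM6, TMEM145, CNFN and CPT1C, also listed after their values were seen.

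**Figure D4:**
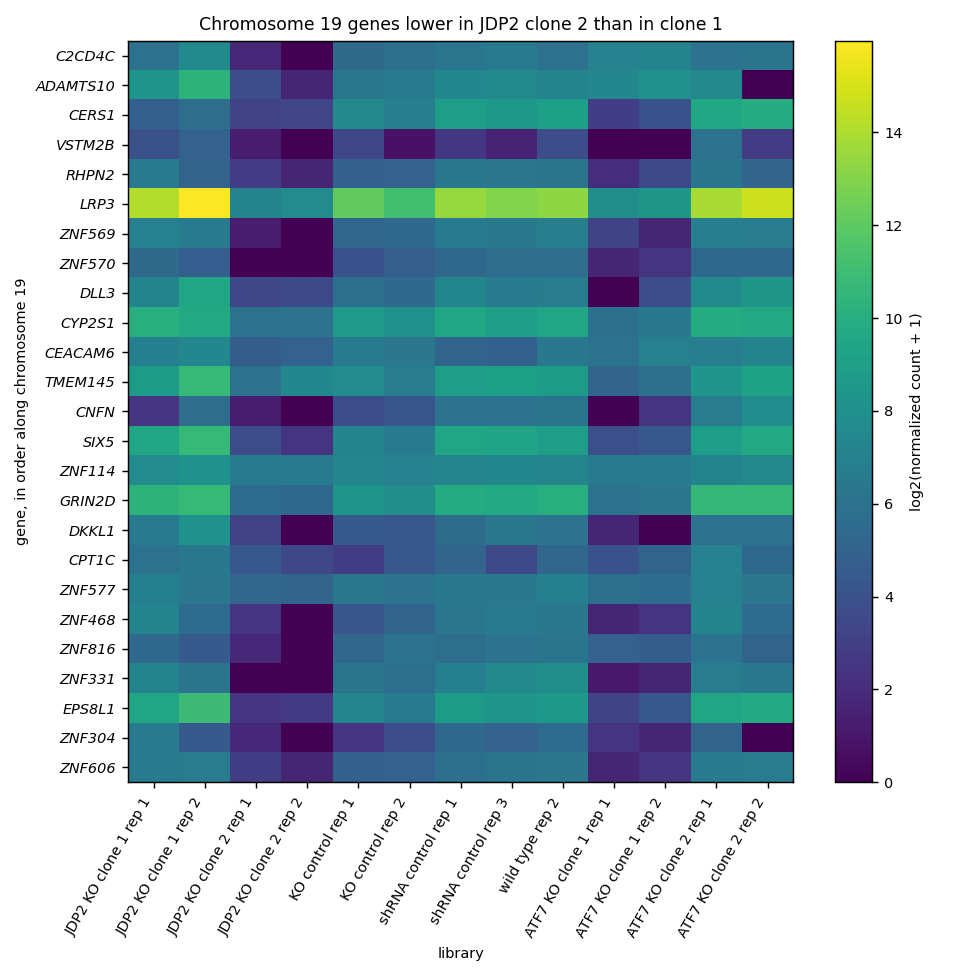
Heat map of log2(normalized count + 1) (color) for the 25 chromosome 19 genes that lay apart with JDP2 clone 2 lower, in order along the chromosome (vertical axis), in each library of the JDP2 clones, controls and ATF7 clones (horizontal axis). JDP2 clone 2 is darker than JDP2 clone 1 for each gene, and ATF7 clone 1 lay apart below ATF7 clone 2 for 17 of them.

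The ATF7 clones, which share no library with the JDP2 clones, differed at some of the same genes. Among 12596 genes tested in both pairs, 126 lay apart lower in JDP2 clone 2, and 107 (0.849%) lay apart higher in ATF7 clone 2. Both held for 28 genes, 22.2% of the first set and 26.2% of the second. Chromosome 19 held 17 of the 28, which made up 70.8% of its 24 genes in the first set and 43.6% of its 39 genes in the second (3.98% of its tested genes). Without clone 1 replicate 2, 29 of 179 genes were in both sets (16.2%), 17 of them on chromosome 19. In the other direction, 9 of 37 genes that lay apart higher in JDP2 clone 2 lay apart lower in ATF7 clone 2 (24.3% of the first set and 4.33% of 208, against 1.65% of all). Without clone 1 replicate 2 that overlap was 18 of 343 (5.25%). In the same direction 3 of 126 genes were lower in both pairs (2.38%, against 1.65% of all) and 3 of 37 higher in both (8.11%, against 0.849%). Over its own 14113 tested genes the ATF7 pair had 354 genes apart (2.51%), 143 of them higher (1.01%), and 144 called by limma (1.02%), 28 higher (0.198%) and 116 lower (0.822%), and the JDP2 pair had 175 apart (1.37%).

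Over all genes tested, 39 lay apart with clone 2 higher (0.306%) and 136 with clone 2 lower (1.07%). The balance turned without clone 1 replicate 2, to 367 higher (2.88%) and 190 lower (1.49%). Of the 136 lower genes 89 had a mean under 10 in clone 2, so they passed the filter through clone 1 and had to differ, and 8 of the 39 higher genes passed through clone 2 in this way. Beside the knockout control, the lower genes lay more than 2-fold from it in clone 1 for 44, in clone 2 for 34, and in both clones in opposite directions for 48. For the higher genes these counts were 22, 4 and 3. In the rest both clones lay on the same side (5 lower and 5 higher genes) or neither was 2-fold away (5 and 5). These counts use the 2 knockout control libraries alone and could differ with another control. For LRP3 the knockout control (4323 and 2278) lay below the shRNA control and wild type (7796 to 11879). For KCNG1 (548 and 388) it overlapped them (362 to 560). Of 8 genes with a mean under 5 in either clone and at least 100 in the other, 7 were low in clone 2 and 1, PSTPIP2, in clone 1.

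**Figure D5:**
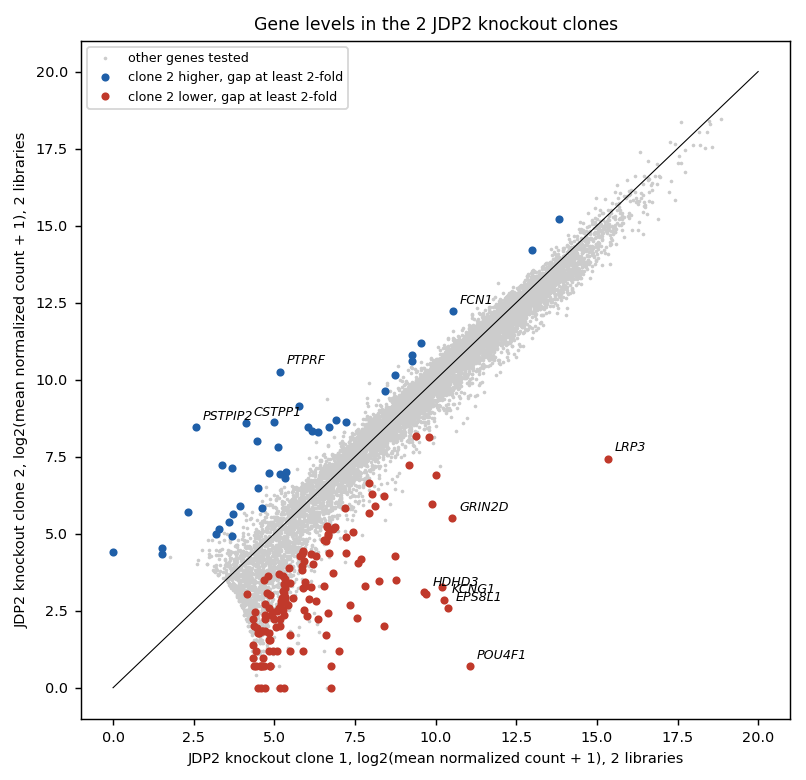
Mean level of each tested gene in JDP2 knockout clone 1 (horizontal axis) and clone 2 (vertical axis), both log2(mean normalized count + 1) over 2 libraries, with genes that lay apart by at least 2-fold in color. The 39 blue genes lie above the diagonal and the 136 red genes below it, with POU4F1 and LRP3 among the farthest from it.

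A few monocyte genes lay apart with clone 2 higher. In this list and those that follow limma and edgeR each called 0 genes over the 4 libraries, and over all genes 57 were higher and 121 lower at an unadjusted limma p under 0.05. CD68, a lysosomal glycoprotein of macrophages, had 630.4 and 613 in clone 1, 1780.2 and 1772 in clone 2 and 4856 and 4466 in the control. Both clones lay below this knockout control. The other controls were split, with 1813 and 2084 in the shRNA control, near clone 2, and 4196 in the wild type, nearer the knockout control. CD68 also separated the ATF7 clones, with 2492 and 2677 in ATF7 clone 1 and 484 and 766 in ATF7 clone 2. The log2 difference of CD68 between the JDP2 clones was 1.51 ± 0.34 (SE) (limma adjusted p = 1). FCN1, which encodes the monocyte lectin M-ficolin, had 1504 and 1443 in clone 1, 4378 and 5232 in clone 2 and 2951 and 2298 in the control. LYZ, which encodes lysozyme, had 16753 and 12307 in clone 1, 34209 and 41142 in clone 2 and 32252 and 23936 in the control. For FCN1 and LYZ the control lay between the clones, and FCN1 was called without clone 1 replicate 2 (limma adjusted p = 0.0464 over the 3 JDP2 libraries). CD68 was not (adjusted p = 0.098), nor was LYZ (adjusted p = 0.205). TREM1, a receptor that amplifies inflammatory signals, named after its values were seen, lay apart in the other direction, with 16.9 and 29.8 in clone 1 and 5.10 and 0 in clone 2. TREM1 averaged under 10 in clone 2, so it passed the filter through clone 1 and had to be lower in clone 2. Of 40 tested differentiation genes 3 lay apart higher and 1 lower, and 3 were higher at an unadjusted p under 0.05. Over all genes tested 0.306% lay apart higher and 1.07% lower. The list's median was -0.02 (0.32 without clone 1 replicate 2). In bulk libraries fewer cells of a kind and less message per cell cannot be told apart.

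Of 9 tested MHC class II genes, which present peptides to helper T cells, 3 lay apart with clone 2 higher and 0 lower. The shares over all genes tested were 0.306% higher and 1.07% lower. HLA-DRB1 had 60.1 and 101 in clone 1, 227 and 402 in clone 2 and 459 and 706 in the control. HLA-DRB5, a near-identical gene whose reads are hard to part from HLA-DRB1, had 73.8 and 69.00 in clone 1, 266 and 378 in clone 2 and 195 and 235 in the control. CIITA, the activator of class II transcription, named after its values were seen, had 32.7 and 22.4 in clone 1, 88.9 and 158 in clone 2 and 280.4 and 369.9 in the control. Both clones lay below the control for CIITA and HLA-DRB1, and the control lay between the clones for HLA-DRB5. The median of the list was 0.59, and 0.50 without clone 1 replicate 2, against -0.002 and 0.009 over all genes. HLA-F, a nonclassical gene among 22 class I and peptide loading genes, had 39.00 and 39.2 in clone 1, 108 and 116 in clone 2 and 301 and 160 in the control. CTSA, the lysosomal protective protein, had 9059 and 7153 in clone 1, 19281 and 18596 in clone 2 and 19067 and 16607 in the control. Both lay apart with clone 2 higher. Of 37 lysosome genes 31 had a difference above 0 (6343 of 12735 over all genes), with a median of 0.29, and 0.35 without clone 1 replicate 2.

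Of 45 tested interferon-stimulated genes 2 lay apart higher and 1 lower, against 0.306% and 1.07% of all genes tested. HERC6, an interferon-induced ligase, had 40.1 and 41.02 in clone 1, 126 and 128 in clone 2 and 96.7 and 109 in the control. IFI35, an interferon-induced protein gene named after its values were seen, had 24.2 and 22.4 in clone 1, 52.5 and 59.5 in clone 2 and 264 and 106 in the control. IFITM1, an antiviral membrane protein, had 65.4 and 117 in clone 1, 7.68 and 10.1 in clone 2 and 108 and 142 in the control. Clone 1 was the lower for HERC6 and IFI35, and clone 2 for IFITM1. IFITM1 averaged under 10 in clone 2, so it passed the filter through clone 1 and had to be lower in clone 2. The median of the list was 0.15, and 0.21 without clone 1 replicate 2.

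A list of 35 genes held bZIP factors that can pair with JDP2 and the IRF2BP genes. Of these and of 37 NF-kB genes 0 lay apart, and 0 had an unadjusted limma p under 0.05. Over all genes tested 1.37% lay apart in either direction, and 178 of 12735 had such a p. RELB, an NF-kB subunit, had 1437 and 2721 in clone 1, 1192 and 785 in clone 2 and 919 and 412 in the control. BCL2A1, a survival gene that NF-kB activates, had 387 and 951 in clone 1, 334 and 201 in clone 2 and 224 and 265 in the control. In both genes clone 2 was the lower without overlap. The medians were -0.11 for NF-kB genes and -0.17 for bZIP and IRF2BP genes, and -0.06 and -0.18 without clone 1 replicate 2. TLR6, a receptor for bacterial lipopeptides, was the member of 30 Toll-like receptor and inflammasome genes that lay apart, with 27.4 and 41.02 in clone 1, 12.8 and 11.2 in clone 2 and 13.04 and 15.1 in the control. LILRA1, an activating receptor on chromosome 19, was the member of 39 leukocyte receptor genes that did, with 47.4 and 22.4 in clone 1, 108 and 137 in clone 2 and 105 and 90.2 in the control.

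TET1, which oxidizes methylated cytosine in DNA, was the member of 34 DNA methylation and silencing genes that lay apart, with 84.3 and 70.9 in clone 1, 7.68 and 4.49 in clone 2 and 10.9 and 85.6 in the control. The 2 control libraries were themselves far apart, 1 near each clone. ALDOC, a glycolytic aldolase, had 155 and 332 in clone 1, 63.4 and 37.02 in clone 2 and 652 and 691 in the control, and ADM, the hypoxia-induced peptide adrenomedullin, had 48.5 and 401 in clone 1, 6.40 and 11.2 in clone 2 and 58.7 and 39.5 in the control. Both clones lay below the control for ALDOC, while for ADM clone 1 replicate 1 lay within the control. These were the 2 of 33 glycolysis and hypoxia genes that lay apart, and the list's median was -0.14, and -0.28 without clone 1 replicate 2. Over all genes tested 1.07% lay apart lower and 0.306% higher. TET1 and ADM averaged under 10 in clone 2, so they passed the filter through clone 1 and had to be lower in clone 2.

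In lists of histone, ribosomal and mitochondrial genes the medians depended on clone 1 replicate 2. Histone genes had a median of -0.99 over 34 genes with all libraries and -0.12 without that library. The values were -0.42 and 0.17 for 79 ribosomal protein genes, and -0.45 and 0.17 for 75 nuclear oxidative phosphorylation genes. They were 0.65 and 0.01 for 13 mitochondrially encoded genes. RPL18, a ribosomal protein gene of a family with many pseudogenes, had 70576 and 280411 in clone 1, 51513 and 65262 in clone 2 and 51643 and 30171 in the control. MT-ND4, a complex I subunit, had 308979 and 92203 in clone 1, 326562 and 353433 in clone 2 and 265814 and 365538 in the control. In both genes clone 1 replicate 1 lay nearer to clone 2 than to its own replicate. HOXA2, among 47 myeloid and HOXA factors, and H3C12, among the histone genes, lay apart lower in clone 2 and were named after their values were seen. Both averaged under 10 in clone 2, so they passed the filter through clone 1 and had to be lower in clone 2. Lists of immediate early, proliferation, p53 target, apoptosis, ribosome biogenesis, proteasome, integrated stress response, unfolded protein response, sterol synthesis, metallothionein, antioxidant, imprinted, telomerase and cancer-testis genes had 0 genes apart. The share over all genes tested was 1.37% in either direction.

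Markers of other cell types were summed in each library. B cell markers summed to 2349.8 to 3149.5 normalized counts in clone 1 and 1699.5 to 2002 in clone 2, with MS4A1 and IGHM at 0 in the 4 libraries. T and NK cell markers, among them CD4, which monocytes also express, summed to 9572 to 14841 and 11061 to 13375, with KLRD1 at 0. Erythroid and megakaryocyte markers summed to 364 to 1201 and 559 to 736, with HBG1, HBG2, AHSP, PF4 and PPBP among those at 0. Epithelial markers summed to 179 to 438 and 233 to 259, and stromal and endothelial markers to 1071 to 1199 and 1207 to 1361. The clones did not overlap for B cell markers (clone 2 lower) or for stromal and endothelial markers (clone 2 higher). CD79B, of the B cell receptor, had 60.1 and 328 in clone 1 and 8.96 and 22.4 in clone 2. CDH1, which encodes E-cadherin, had 23.2 and 20.5 in clone 1, 2.56 and 2.24 in clone 2 and 2.2 and 6.6 in the knockout control. It also differed widely within groups, with 94.5 and 0.0 in the shRNA control and 78.7 and 0.0 in ATF7 clone 2. CDH1 averaged under 10 in clone 2 and passed the filter through clone 1. No other marker of these lists lay apart, and the part of these markers in other differences between the clones was not tested.

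Each clone was also set beside the knockout control in 1 fit of 6 libraries, in which both comparisons use the same control libraries. Limma called 5 of 12643 genes in clone 1 (0.0395%), all 5 lower, and 22 in clone 2 (0.174%), 2 higher (0.0158%) and 20 lower (0.158%). PTPRF, PSTPIP2 and CD68 fell in clone 1, with log2 changes of -5.14, -5.01 and -2.90 (adjusted p = 0.000804, 0.00963 and 0.036). Their values in clone 2 were -0.06, 0.87 and -1.39 and were not called. The other 2 calls of clone 1, NDUFB4 and CCL5, named after their values were seen, fell in clone 2 as well. NDUFB4, a complex I subunit, had changes of -3.61 and -3.82, and CCL5, a chemokine, had -3.01 and -2.72.

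TMEM72 and AOC3 rose in clone 2 against the control, by log2 changes of 3.64 and 3.35 (limma adjusted p = 0.0417 and 0.0328). POU4F1, KCNG1, CXCL16, A4GALT, LRP3, EPS8L1, ZNF331, GRIN2D, ALDOC and HDHD3 were among the 20 that fell, with changes from -10.13 for POU4F1 to -2.59 for GRIN2D. LRP3, EPS8L1 and GRIN2D had changes of 3.44, 3.21 and 2.43 in clone 1, which were not called. The counts of calls rested on single libraries. Without clone 1 replicate 2 they were 262 in clone 1 and 619 in clone 2, without clone 1 replicate 1 the count was 4576 in clone 1, without clone 2 replicate 1 it was 37 in clone 2, and without either control library both were 0.

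A comparison that pools the clones averages these levels. The authors' deposited table compares the JDP2 knockout with controls, and the deposited counts number 5 control libraries (2 shRNA control, 1 wild type and 2 knockout control), so its control group may be wider than the knockout control used above. In the authors' deposited table of JDP2 knockout against controls POU4F1 had a log2 change of -0.31 ± 0.45 (SE), with an adjusted p of 0.702. For LRP3 the authors' deposited table gave 0.57 ± 0.45 (SE) (adjusted p = 0.428), and for PTPRF it gave -0.54 ± 0.45 (SE) (adjusted p = 0.464). TMEM72 and AOC3 passed in the authors' deposited table, with 1.83 ± 0.45 (SE) and 1.73 ± 0.37 (SE) (adjusted p = 0.00259 and 0.00056). For TMEM72 the clone 1 libraries overlapped the knockout control, and both clone 2 libraries lay above it.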

How the data were processed

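Gene values were deposited by the authors as normalized read counts, a signal per gene in which each library's counts are divided by a size factor. Genome build hg38 and the tools featureCounts and DESeq2 appear in the submitters' processing notes, with no version. The aligner and annotation, like the strand setting, were not given in the sources used here. The steps of the values gave back whole reads for 100% of 388037 values (tolerance 0.01), used for edgeR and DESeq2. The authors' deposited tables of comparisons hold log2 changes and p-values, and 1 of them is quoted. From the deposited normalized counts log2(value + 1) was computed, genes with a mean of at least 10 were kept, and limma (3.58.1, R 4.3.3, eBayes with trend) was fitted with Benjamini-Hochberg adjustment over the genes tested. EdgeR (4.0.16), DESeq2 (1.42.0) and other settings were alternatives. Data were simulated at the spread of these 4 libraries over 12735 genes, with 200 genes of a mean of at least 50 changed. Limma called 0% of genes changed by a log2 of 1, 34% at 2, 96% at 4 and 100% at 6. It called 0.0638% of unchanged genes. The simulated noise was independent for each gene, without the library-wide shift of clone 1 replicate 2, so these shares need not hold for the real libraries. There LRP3 (-7.65) and KCNG1 (-7.41) were not called over the 4 libraries (limma adjusted p = 0.0759 and 0.212).

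The genes named are JDP2, ATF7 and IRF2BP2, 12 rises and 12 falls called or by lowest p with a mean of at least 50 in either clone and no overlap, 2 to 4 members of each list, genes under 5 in 1 clone and at least 100 in the other, and genes called with 10 libraries. The members and lists were chosen with earlier results of these data known. RefSeq gave a chromosome for 12649 of the 12735 genes. Levels of different genes are not divided by length and were not compared.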

Additional observations from a re-analysis of the deposited data

Results flagged for a closer look

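The JDP2 clones differed from each other by a test at POU4F1, whose log2 difference of clone 2 from clone 1 was -10.46. At the other genes listed here both libraries of clone 1 lay on 1 side of both knockout control libraries and both libraries of clone 2 on the other side, while the limma test of the 4 libraries did not call the difference between the clones. The genes with clone 2 above the control were PSTPIP2 (5.887), CSTPP1 (4.558), HLA-DRB5 (2.135), CTPS2 (1.793), ITGAD (4.004) and FCN1 (1.699), with the log2 difference of clone 2 from clone 1 in parentheses. The genes with clone 2 below it were GRIN2D (-5.015), EPS8L1 (-7.604), LRP3 (-7.653), CYP2S1 (-3.907), SIX5 (-6.945), SYT7 (-4.514), KCNG1 (-7.41), A4GALT (-6.139), ADAMTS10 (-6.604), FGD1 (-4.628), ZNF569 (-6.155), ZNF331 (-6.66), DKKL1 (-5.817), C2CD4C (-5.861) and ZNF606 (-4.367). The genes were themselves picked for low p or for a low level in 1 clone, so this position is a description. It rests on the knockout control alone. The shRNA control and wild type lay above the knockout control for LRP3, EPS8L1, SIX5, GRIN2D and CYP2S1, and below it for PSTPIP2.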

How the results depend on the processing

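For clone 2 against clone 1 the count of called genes was 1. It was 0 with a constant of 0.5, 0 with a mean of at least 50, 0 with edgeR, 0 without the trend and 0 with equal totals, a setting that moved the median of all genes by 0.215, and 2 with quantile normalization. It was 36 with DESeq2 (11 higher, 25 lower), 18 with the 10 libraries, 34 with the 19, 22 with 9 libraries of the arm, 12 with array weights, and 15 to 2683 when 1 library was left out, most without clone 1 replicate 1. With the replicate number as a block it was 79, and 17 of the 18 genes of the 10-library fit were among them; DESeq2 also called 17. The labels do not say that a number marks a shared culture, and deviations of same-numbered libraries correlated at 0.17 between the JDP2 clones.

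Clone 1 against the control had 5 calls, 9 with a constant of 10, 21 with quantile normalization, 11 with edgeR, 3 with the replicate number as a block and 0 to 4576 without 1 library. Clone 2 against the control had 22, 38 with crossed pairs as a block, 619 without clone 1 replicate 2 and 0 to 37 without 1 of its own or the control's libraries. The ATF7 pair had 144 calls, 68 with a mean of at least 50, 22 with quantile normalization, 2214 with the replicate block and 0 to 134 without 1 library. Crossed pairing of its replicates gave 154. The causes were not tested.

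The log2 difference of JDP2 ranged from -0.19 to 0.66 when 1 library was left out and turned without clone 1 replicate 1. That of IRF2BP2 turned to 0.29 with quantile normalization and ranged from -0.35 to 0.27 when 1 library was left out. With 2 libraries a clone, differences of 2-fold were below what limma could call in simulated data.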
